A study of Homo sapiens with 6 samples.

Results

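The translation initiation and elongation factor genes are the nuclear genes whose symbols begin with EIF1 to EIF6 or with EEF1 or EEF2, and they encode the proteins that load a ribosome onto an mRNA and move it along. They were collected by name alone, and 78 rows of the deposited table matched. Left out were 5 names beginning with EIF2AK (the eIF2 kinases and EIF2AK3-DT), 5 other names with a hyphen and 5 names ending in P and a digit. This left 63 genes of 28265 rows. The last of those exclusions removed pseudogenes but also the eIF4E-binding protein genes EIF4EBP1, EIF4EBP2 and EIF4EBP3, whose values are given with the other pathway genes. The samples were 6 libraries of poly(A)-selected mRNA from MDA-MB-231, a widely used human cell line of triple-negative breast cancer. The 3 parental libraries were from parental cells grown with glutamine, in RPMI supplemented with fetal bovine serum. The 3 GlnIND libraries were from the MDA-MB-231GlnIND line, held for more than 6 weeks in RPMI without glutamine and with dialysed serum. Medium, serum and cell line therefore differ together between the groups and cannot be told apart, and the labels do not say whether GlnIND is a clone or whether replicates were separate cultures. The p-values accordingly measure only how far these libraries scattered, which may be technical scatter.

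Protein synthesis starts when eIF4E binds the cap of an mRNA and, through the scaffold eIF4G, brings in the RNA helicase eIF4A; eIF3 joins this assembly to the small ribosomal subunit. The initiator tRNA arrives in a complex with eIF2 and GTP, and eIF2B recharges eIF2 with GTP for the next round, a step that stress kinases block by phosphorylating eIF2 when amino acids run short. Elongation is then driven by eEF1A, which delivers aminoacyl-tRNAs, by its exchange factor eEF1B, and by eEF2, which moves the ribosome along and is inhibited by its kinase eEF2K. Many mRNAs of elongation factors and ribosomal proteins begin with a C followed by a run of pyrimidines, the terminal oligopyrimidine or TOP element, and their translation depends on the nutrient-sensing kinase complex mTORC1.

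The start sites of these genes are shown because that element sets part of the group apart in sequence while, as the values further down show, its carriers did not move in 1 direction. Each line gives 20 bases before the annotated start and 20 from it, read from RefSeq promoters of build GRCh38.p14 on the coding strand, with capitals for the unbroken run of C and T that opens with C at the start itself. Of the 63 genes, 50 were matched to RefSeq promoters. EEF1A1, EEF2 and EEF1B2 are elongation factor genes, EIF4B, EIF4A2, EIF2S3, EIF3K and EIF3M are initiation factor genes, and EIF4E and EIF4G2 carry no such run.
EEF1A1, chr6:73521013-73521052, minus strand: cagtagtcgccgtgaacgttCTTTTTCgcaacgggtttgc
EEF2, chr19:3985444-3985483, minus strand: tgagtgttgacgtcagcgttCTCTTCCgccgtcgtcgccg
EEF1B2, chr2:206159875-206159914, plus strand: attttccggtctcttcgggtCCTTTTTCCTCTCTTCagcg
EIF4B, chr12:53006436-53006475, plus strand: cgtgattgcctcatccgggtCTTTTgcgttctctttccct
EIF4A2, chr3:186783557-186783596, plus strand: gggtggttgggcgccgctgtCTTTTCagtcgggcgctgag
EIF2S3, chrX:24054936-24054975, plus strand: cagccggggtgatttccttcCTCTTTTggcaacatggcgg
EIF3K, chr19:38619168-38619207, plus strand: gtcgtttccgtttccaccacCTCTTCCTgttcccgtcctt
EIF3M, chr11:32583811-32583850, plus strand: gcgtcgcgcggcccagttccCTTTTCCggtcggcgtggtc
EIF4E, chr4:98929114-98929153, minus strand: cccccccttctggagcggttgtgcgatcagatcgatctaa
EIF4G2, chr11:10808907-10808946, minus strand: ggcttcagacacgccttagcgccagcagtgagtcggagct

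A C followed by at least 4 pyrimidines at an annotated start was present in 13 of the 50 matched genes (26%), against 5.8% of 18249 genes matched in the table. The 13 were EEF1A1, EEF1B2, EEF2, EIF2A, EIF2D, EIF2S3, EIF2S3B, EIF3D, EIF3F, EIF3K, EIF3M, EIF4A2 and EIF4B. Where a gene had several annotated starts, 1 start with the run sufficed. The palindrome CACGTG, the core E-box bound by MYC and related factors, was found anywhere in the 300 bases from 250 before to 50 after a start in 12 of the 50 genes (24%), against 10.2% of the 18249. A match is a description of the letters and no evidence of binding.

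Library totals were between 18256219 and 24594248 counts. Parental 1 stood apart from parental 2 and 3, with a chi-square per degree of freedom over genes, on halved counts, of 11.8 and 16.5, whereas the other same-group pairs gave 1.71 to 2.06 and pairs across groups 38.7 to 59.8. For EIF3A, EIF3K, EIF5A, EIF5B, EIF6 and EEF2KMT, values are also given without it. Parental 2 and 3 lay close together, at 2.04 on that measure. Without parental 1, 4601 genes were called higher and 4679 lower, against 3965 and 3888 with all 6 libraries. Adjusted p-values without parental 1 thus rest on a small scatter that may be technical, and are not stronger evidence than those from all 6 libraries. The markers of the line were present but moved in both directions, VIM and EGFR higher (log2 fold changes 0.61 and 0.36) and KRT8, KRT18 and CD44 lower (-1.12, -1.45 and -0.30), all called by edgeR. Together they summed to 5638 to 6210 CPM (counts scaled to a common library size) in parental and 7458 to 7598 CPM in GlnIND libraries. Of 4 genes expected to be absent ESR1, PGR and CDH1 stayed under 1 CPM in every library, and ERBB2 was present at a mean of 36.1 CPM in parental and 63.7 CPM in GlnIND libraries. Fibroblast markers (COL1A1, COL1A2, DCN and LUM, 2 of the 4 under 1 CPM throughout) summed to 4.12 to 6.08 CPM in parental and 14.0 to 15.9 CPM in GlnIND libraries, the 3 endothelial markers to 2.40 to 2.68 and 3.95 to 4.71 CPM, and the 5 leukocyte markers to 1.03 to 2.03 and 1.48 to 1.66 CPM. Of the fibroblast markers, LUM had 0 counts in every parental library and 40, 54 and 78 counts in the GlnIND libraries. COL1A1 had a mean of 5.00 CPM in parental and 12.3 CPM in GlnIND libraries, and edgeR called both genes higher. The endothelial marker PECAM1 was also called higher, at means of 2.41 and 4.34 CPM. The part of all these markers in the results was not tested.

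Of the 63 genes 57 had enough counts to be tested. Values are CPM scaled by TMM factors, a log2 fold change is GlnIND over parental, SE is its standard error, and a gene was called higher or lower at an adjusted p under 0.05 in edgeR's quasi-likelihood test over all 13949 tested genes. On that test 34 of 57 genes (59.6%) differed, 11 higher (19.3%) and 23 lower (40.4%) in GlnIND cells. Over all tested genes 56.3% differed, 28.4% higher and 27.9% lower. Most factor genes are abundant, and the background of abundant genes leaned the same way. Among genes with a mean of at least 50 CPM 62.6% differed, 19.9% higher and 42.7% lower. The 45 factor genes above that level had 9 higher and 20 lower (44.4%), close to that background. Counts of called genes in each complex below are to be read against these shares, and no complex was tested as a set. The groups had separate CPM ranges for 34 of the 57 genes, 11 above and 23 below in GlnIND libraries, against 65.0% of all tested genes, 33.7% above and 31.3% below. The median log2 fold change was -0.08 over the factor genes and 0.03 over all tested genes. The split into higher and lower genes depended on the scaling: it was 15 to 17 with upper-quartile factors and 18 to 14 with library totals alone, scalings that move the median of all genes to 0.12 and 0.18. In bulk RNA, a change in the fraction of cells that express a gene and a change in RNA per cell cannot be told apart.

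The changes were mostly modest in size. A called change of more than 1.5-fold was seen in 13 of 57 genes (22.8%), 2 higher and 11 lower, against 31.2% of all tested genes. That share was not taken among abundant genes alone. The median absolute log2 fold change was 0.28 over the factor genes, close to the 0.30 over abundant genes, and 0.40 over all tested genes. As a share of all counts the 63 genes took 2.59%, 2.64% and 2.65% in parental libraries and 2.43%, 2.41% and 2.33% in GlnIND libraries, means of 2.63% ± 0.0338 and 2.39% ± 0.0502 (SD, n = 3 each). EEF1A1 alone accounted for 0.754% ± 0.0264 of parental and 0.645% ± 0.0231 of GlnIND counts (SD, n = 3 each).

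**Figure D1:**
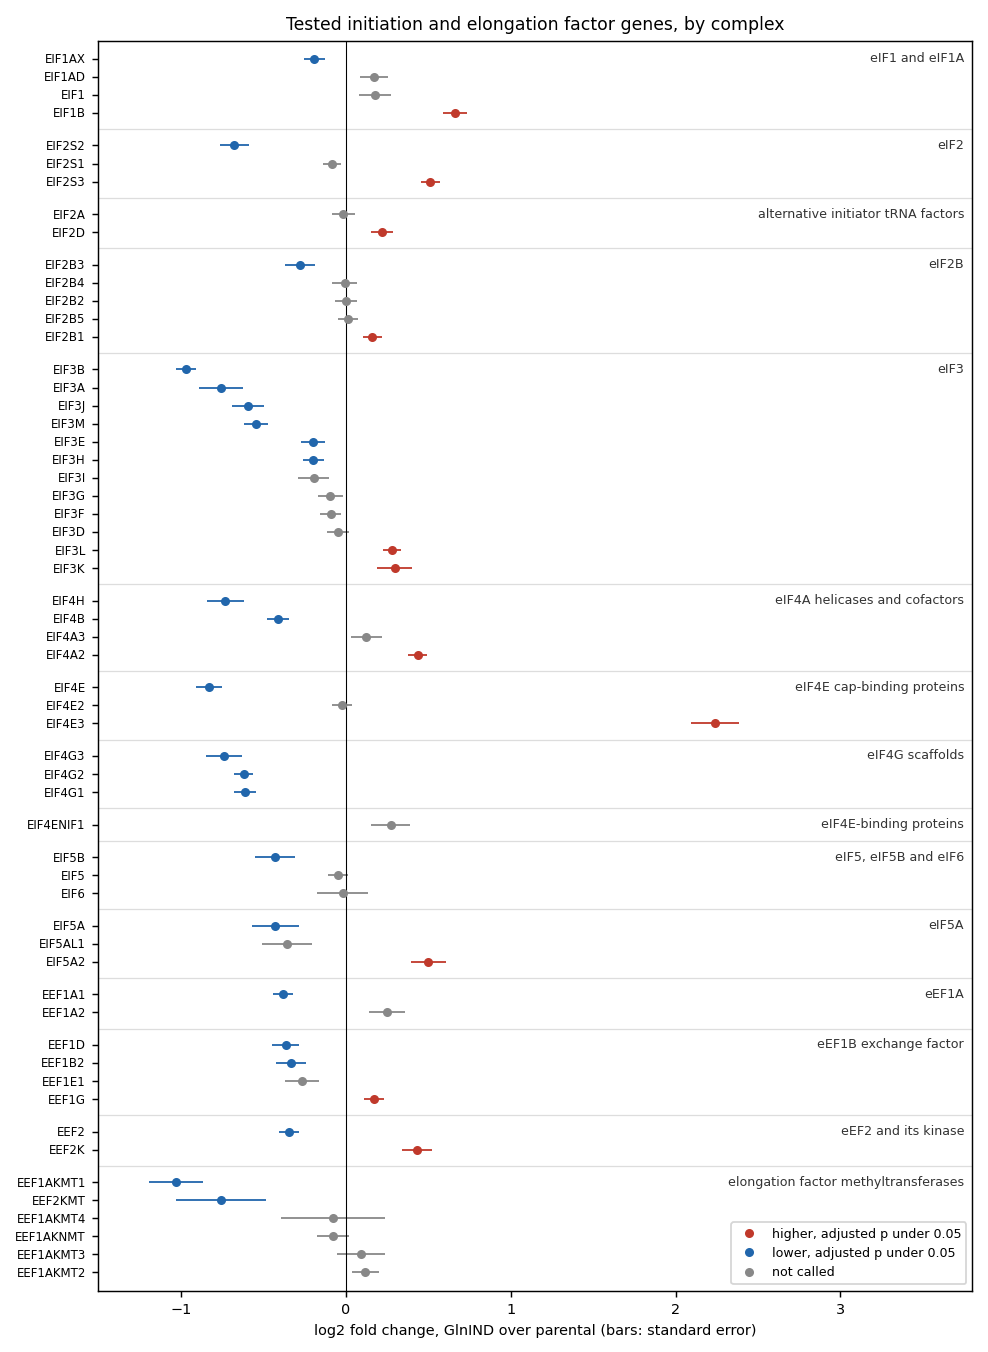
Log2 fold change of GlnIND over parental for each of the 57 tested factor genes, with bars of 1 SE and colours for genes called higher, lower or not called. The values run from -1.03 for EEF1AKMT1 to 2.24 for EIF4E3, with 11 genes higher and 23 lower.

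The cap-binding genes moved in opposite directions. EIF4E, the canonical cap-binding protein, was at 156, 147 and 129 CPM in the parental and 80.2, 81.9 and 80.8 CPM in the GlnIND libraries. All GlnIND values lay below all parental values, with a log2 fold change of -0.83 and an SE of 0.079 (edgeR adjusted p = 2.11e-05). EIF4E3, a low-abundance relative that binds the cap in a different manner, was at 2.08, 2.52 and 2.50 CPM in parental libraries and at 11.2 CPM in each GlnIND library. It rose 4.73-fold (log2 fold change 2.24, SE 0.15, edgeR adjusted p = 2.06e-06), the largest change in either direction among the tested factor genes. EIF4E2, the relative 4EHP that represses translation of its target mRNAs, was at 109, 109 and 108 CPM against 107, 109.9 and 104 CPM and was not called (log2 fold change -0.02, edgeR adjusted p = 0.753). EIF4ENIF1, which carries eIF4E into the nucleus, was not called at 0.27 (edgeR adjusted p = 0.0734). EIF4E1B, the oocyte form, had 0 counts in all 6 libraries, which by counting error alone allows 0.230 to 0.343 CPM. That is 6 counts, taken as 3 read pairs on the assumption that both reads of a pair were counted. In each library 60.6% to 65.0% of counts below 20 were even and the rest odd, so the assumption holds at most in part.

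All 3 scaffold genes fell, where 42.7% of abundant genes were lower. EIF4G1, the main scaffold, was at 1280.2, 1201 and 1126 CPM in the parental and 783, 805 and 775 CPM in the GlnIND libraries (log2 fold change -0.61, SE 0.065, edgeR adjusted p = 4.47e-05). EIF4G2 encodes DAP5, a scaffold that lacks the eIF4E-binding site and serves cap-independent initiation. It was at 2302, 2216 and 2238 CPM against 1460.5, 1468 and 1469 CPM (log2 fold change -0.62, SE 0.056, edgeR adjusted p = 1.59e-05). EIF4G3, the third scaffold, was at 217, 165 and 159 CPM against 109, 111 and 105 CPM (log2 fold change -0.74, SE 0.11, edgeR adjusted p = 0.000337). In all 3 the GlnIND libraries agreed closely and lay below every parental library, and parental 1 was the highest for each. The 3 calls held under every alternative that was run.

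Among helicase genes, EIF4A2 rose while both cofactor genes fell. EIF4A2, a close relative of the main helicase eIF4A1, was at 580.4, 539 and 563 CPM in parental and 745, 778 and 755 CPM in GlnIND libraries (log2 fold change 0.44, SE 0.059, edgeR adjusted p = 0.000193). EIF4B, which stimulates the helicase, was at 645, 578 and 575 CPM against 441, 449 and 462 CPM (log2 fold change -0.41, SE 0.066, edgeR adjusted p = 0.000534). EIF4H, a smaller protein with the same activity, was at 338, 441 and 466 CPM against 251, 269.6 and 229.9 CPM (log2 fold change -0.73, SE 0.11, edgeR adjusted p = 0.00049). The groups did not overlap for any of the 3. The EIF4H difference was shared by its surroundings on chromosome 7: the median over its 40 nearest tested genes was -0.70, and EIF4H less that median was -0.03 (adjusted p = 0.83). EIF4A3, the helicase of the exon junction complex, was not called (0.13, edgeR adjusted p = 0.272). EIF4A1 was listed at 0 counts in all libraries. Its annotated span lies wholly within the readthrough row SENP3-EIF4A1, which held 2 to 15 counts. EEF1E1 and EEF1AKMT4 also lie wholly within a readthrough row, yet held 3042 and 460 counts summed over all libraries. Why EIF4A1 stood at 0 was not tested. The table gives no usable level for the main helicase, and a count of 0 is no evidence of its absence.

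**Figure D2:**
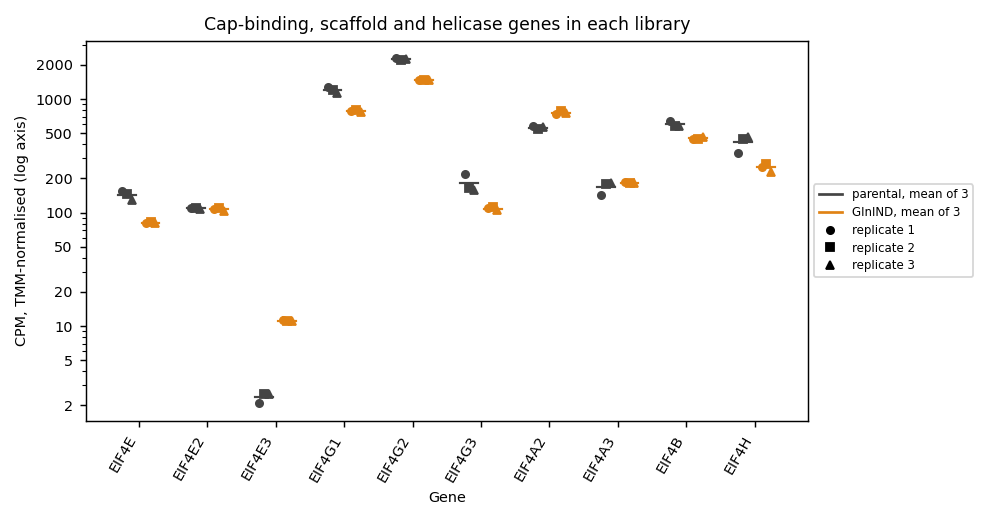
CPM (log axis) of the cap-complex genes in each of the 6 libraries, with a horizontal line at each group mean of 3. The GlnIND points lie below all parental points for EIF4E and the 3 EIF4G genes, and above them for EIF4E3 and EIF4A2.

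The 3 genes of eIF2, which carries the initiator tRNA, differed from each other. EIF2S2, the beta subunit, was at 594, 489 and 487 CPM in parental and 345, 330.0 and 308 CPM in GlnIND libraries (log2 fold change -0.68, SE 0.088, edgeR adjusted p = 0.000151). EIF2S3, the gamma subunit that binds GTP and the tRNA, was at 235, 243 and 236 CPM against 335, 339.7 and 345 CPM (0.51, SE 0.056, edgeR adjusted p = 5.21e-05). The beta subunit thus lay lower and the gamma subunit higher in every GlnIND library. EIF2S1, the alpha subunit that the stress kinases phosphorylate, was at 421, 397 and 420.0 CPM against 391, 389 and 388 CPM. These ranges did not overlap, yet the gene was not called (-0.08, edgeR adjusted p = 0.236); its span lies wholly within the row of GPHN, and whether counting used strand is not given in the sources used here. The EIF2S3 value fell to 0.16 (adjusted p = 0.035) after the median of its neighbours on chromosome X was subtracted. EIF2S3B, a retrocopy of EIF2S3, had 4 to 16 counts and was not tested.

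Of the 2 factors that can bring an initiator tRNA without eIF2, EIF2D was slightly higher, at 58.5, 58.5 and 58.1 CPM in parental and 66.3, 69.3 and 68.1 CPM in GlnIND libraries (log2 fold change 0.22, edgeR adjusted p = 0.0184). EIF2A was not called (-0.02, edgeR adjusted p = 0.864). The EIF2D call was lost when any library other than parental 1 was left out (adjusted p 0.0515 to 0.0888) and with the replicate block (0.0571), and 46.9% of its span overlaps RASSF5. Of the 5 eIF2B subunit genes 1 rose, 1 fell and 3 were not called. EIF2B1, a regulatory subunit needed for the response to phosphorylated eIF2, was at 157, 161 and 165 CPM against 184, 176 and 179.5 CPM (0.16, edgeR adjusted p = 0.0398). EIF2B3, the gamma subunit, was at 58.4, 47.9 and 56.3 CPM against 46.6, 43.6 and 43.9 CPM (-0.28, edgeR adjusted p = 0.0247). EIF2B2, EIF2B4 and EIF2B5, the last of which catalyses nucleotide exchange, had log2 fold changes of 0.0004, -0.01 and 0.02. The EIF2B1 call was lost without any library but parental 1 (adjusted p 0.0844 to 0.168), and with RLE factors (0.0633), no filter (0.087), the replicate block (0.099) and DESeq2 (0.093). The EIF2B3 call was lost without GlnIND 2 (0.0828) or GlnIND 3 (0.0764), with upper-quartile scaling (0.0965) and with library totals alone (0.239).

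The subunits of eIF3, the multi-protein complex that ties the 40S ribosomal subunit to the mRNA, had 6 lower genes (50%), 2 higher (16.7%) and 4 that did not pass among 12 tested, around a median log2 fold change of -0.20. These shares are near those of abundant genes, 42.7% lower and 19.9% higher. EIF3B, which with EIF3A forms the core of the complex, was at 537, 525 and 556 CPM in parental and 283, 278 and 267 CPM in GlnIND libraries. The parental level was 1.96-fold the GlnIND level (log2 fold change -0.97, SE 0.059, edgeR adjusted p = 1.51e-06). EIF3A, the largest subunit, was at 1351, 952 and 897 CPM against 634, 637 and 626 CPM (-0.75, SE 0.13, edgeR adjusted p = 0.000967). Parental 1 was well above the other parental libraries for EIF3A, while the GlnIND libraries lay together below all of them. Without parental 1 the EIF3A value was -0.56 (edgeR adjusted p = 7.99e-17, which rests on the small scatter of the remaining libraries).

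Among the outer subunits EIF3J, a loosely bound one, was at 286, 240.1 and 218 CPM against 169, 157 and 168 CPM (-0.59, edgeR adjusted p = 0.000566). EIF3M was at 466, 407 and 403 CPM against 302, 283 and 289 CPM (-0.54, edgeR adjusted p = 0.000174). EIF3E and EIF3H had smaller log2 fold changes of -0.20 each (edgeR adjusted p = 0.046 and 0.0223). The genes that rose were EIF3L, from 300.3, 288 and 297 CPM to 365, 359 and 352 CPM (0.28, edgeR adjusted p = 0.0021), and EIF3K, whose product binds EIF3L, from 192, 223 and 261 CPM to 293, 284 and 254 CPM (0.30, edgeR adjusted p = 0.0368). The EIF3K groups overlapped, its 40 neighbours on chromosome 19 had a median of 0.31, and its value without parental 1 was 0.18. EIF3D, which can itself bind the cap of some mRNAs, and EIF3F, EIF3G and EIF3I were between -0.19 and -0.05 and were not called. EIF3C and EIF3CL, near-identical copies, had 0 to 2 and 0 counts, so the table gives no level for that core subunit. With upper-quartile factors or library totals alone EIF3E and EIF3H were not called (adjusted p 0.151 to 0.587), which leaves 4 lower genes of those 6. The EIF3E call was also lost without any GlnIND library (0.0515 to 0.133), that of EIF3H without GlnIND 2 or GlnIND 3 (0.0712 and 0.0787), and that of EIF3K without parental 2, GlnIND 1 or GlnIND 2 (0.101 to 0.15), with the replicate block (0.053) and with the GC trend removed (0.0829).

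**Figure D3:**
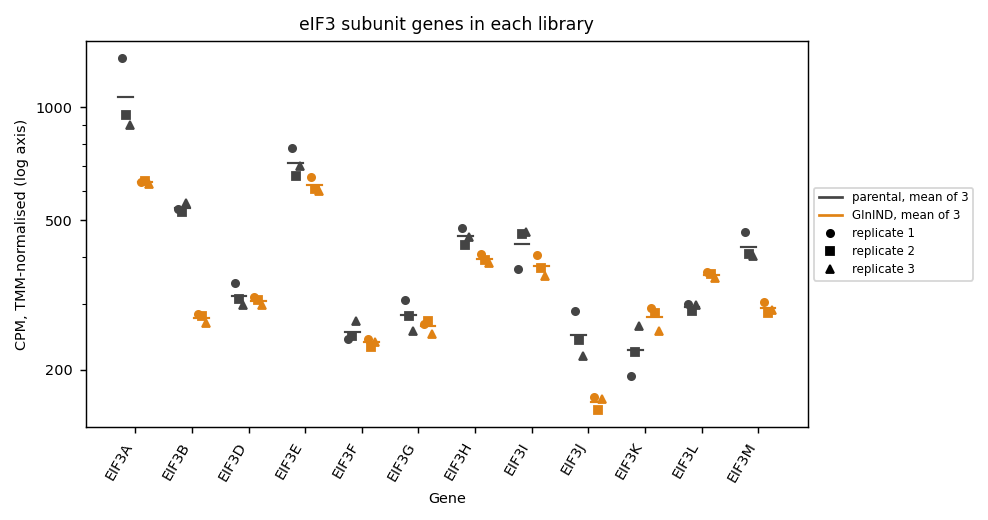
CPM (log axis) of the 12 tested eIF3 subunit genes in each library, with a horizontal line at each group mean of 3. The GlnIND points lie below all parental points for EIF3A, EIF3B, EIF3E, EIF3H, EIF3J and EIF3M, and above them for EIF3L.

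The genes for start-codon selection changed in different directions. EIF1B, a paralogue of the start-codon gatekeeper EIF1, was at 50.9, 47.9 and 52.1 CPM in parental and 79.7, 82.6 and 76.9 CPM in GlnIND libraries (log2 fold change 0.66, SE 0.072, edgeR adjusted p = 4.78e-05). EIF1 itself, the more abundant of the pair, had a mean of 586 CPM against 663 CPM and was not called (0.18, edgeR adjusted p = 0.143). EIF1AX, which promotes scanning together with EIF1, was at 146, 157 and 155 CPM against 140.1, 128 and 133 CPM (-0.19, edgeR adjusted p = 0.0298). EIF1AD, which shares the eIF1A domain, was not called (0.17, edgeR adjusted p = 0.107). The EIF1B value was 0.27 (adjusted p = 0.0117) after the median of its neighbours was subtracted. The EIF1AX call was lost with upper-quartile factors (adjusted p = 0.216) and library totals alone (0.639), and without parental 2, GlnIND 2 or GlnIND 3 (0.0774 to 0.117), and it turned to 0.23 (0.0117) once a trend with GC content was removed. EIF1AY was counted as a member and is not described.

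Of the factors of subunit joining, EIF5B, the GTPase that unites the ribosomal subunits, was at 744, 537 and 522 CPM in parental and 467, 441 and 434 CPM in GlnIND libraries (log2 fold change -0.43, SE 0.12, edgeR adjusted p = 0.0137). Parental 1 again stood well above the others, and without it the change was -0.25 (adjusted p = 1.92e-06). The call was lost without GlnIND 2 (0.0505) or GlnIND 3 (0.0511), with library totals alone (0.0627) and with the GC trend removed (0.293). EIF5, which triggers GTP hydrolysis by eIF2, was not called (-0.05, edgeR adjusted p = 0.552). EIF6, which keeps free large subunits apart from small ones, was at 246, 385 and 409 CPM against 349, 349.6 and 328 CPM (-0.02, edgeR adjusted p = 0.925). Parental 1 lay below every other library for EIF6, and without it the gene was called lower (-0.22, adjusted p = 2.64e-05).

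The eIF5A genes encode a factor that relieves stalled ribosomes and carries the modified amino acid hypusine. EIF5A, the common form, was at 723, 1103 and 1115 CPM in parental and 746, 712 and 730.3 CPM in GlnIND libraries, so that parental 1 lay among the GlnIND values and the groups overlapped. Its value of -0.43 on the log2 scale (standard error 0.14, edgeR adjusted p = 0.0262) became -0.61 without parental 1, and the call was lost without any other library (adjusted p 0.0558 to 0.0853), with upper-quartile scaling (0.0725) and with library totals alone (0.137). EIF5A2, a paralogue with restricted expression in normal tissues, was at 71.7, 65.8 and 54.9 CPM against 91.3, 83.2 and 97.8 CPM. All its GlnIND values lay above the parental ones (0.50, SE 0.11, edgeR adjusted p = 0.00262). EIF5AL1, at means of 11.5 and 8.95 CPM, was not called (-0.36, edgeR adjusted p = 0.0666), and as a near-copy of EIF5A its counts are uncertain.

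Of the eEF1A genes, which encode the factor that delivers tRNAs, 1 fell and 1 was not called. EEF1A1, the most abundant gene of the group, was at 7804, 8040.1 and 8023 CPM in parental and 6312, 6212 and 5839 CPM in GlnIND libraries (log2 fold change -0.38, SE 0.061, edgeR adjusted p = 0.000558). Its many processed pseudogenes make the counts uncertain. EEF1A2, the isoform of muscle and neurons, was at 13.6, 13.2 and 12.1 CPM against 16.0, 15.9 and 14.3 CPM. Those ranges did not overlap, with the GlnIND values above, but the gene was not called (0.25, edgeR adjusted p = 0.078).

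Of the genes grouped with the eEF1B exchange factor 2 fell, 1 rose and 1 was not called. EEF1D, a subunit with exchange activity, was at 299.7, 360.4 and 344 CPM in parental and 268, 271 and 242 CPM in GlnIND libraries (-0.36, SE 0.082, edgeR adjusted p = 0.00394). EEF1B2, the other exchange subunit, was at 695, 568 and 574 CPM against 518, 485 and 456 CPM (-0.33, SE 0.089, edgeR adjusted p = 0.00988). The GlnIND libraries were the lower for both. EEF1G, a structural subunit, was at 1157, 1133 and 1087 CPM against 1309.7, 1284 and 1205 CPM (0.17, edgeR adjusted p = 0.039), and turned to -0.23 (adjusted p = 0.0111) after its neighbours' median of 0.40 was subtracted. The EEF1G call was lost without any library but parental 1 (adjusted p 0.0565 to 0.184), with RLE factors (0.0712), the replicate block (0.0708), DESeq2 (0.0828) and the GC trend removed (0.176). EEF1E1, grouped here by its name, encodes a part of the multi-synthetase complex and was not called (-0.26, edgeR adjusted p = 0.0502). With library totals alone neither EEF1D (-0.21, adjusted p = 0.0588) nor EEF1B2 (-0.18, adjusted p = 0.08) passed. Less the median of its neighbours, EEF1B2 was at -0.20 and was not called.

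The translocation factor and its kinase moved in opposite directions. EEF2 was at 1207, 1314 and 1327 CPM in parental and 1023, 1023 and 983 CPM in GlnIND libraries (log2 fold change -0.35, SE 0.062, edgeR adjusted p = 0.00111). EEF2K, the kinase that phosphorylates and inhibits eEF2, was at 27.3, 27.2 and 31.4 CPM against 37.9, 38.2 and 39.9 CPM (0.43, SE 0.089, edgeR adjusted p = 0.00241). Neither gene's groups overlapped, and the EEF2K call held under every alternative that was run. EEF2 less the median of its neighbours was -0.15 (adjusted p = 0.072).

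Of 6 genes for methyltransferases that modify lysines or the amino terminus of eEF1A and eEF2, 2 fell and 4 were not called. EEF1AKMT1 was at 5.65, 6.75 and 7.38 CPM in parental and 3.09, 3.20 and 3.38 CPM in GlnIND libraries (log2 fold change -1.03, SE 0.16, edgeR adjusted p = 0.000542), the lowest value of the 57 genes. Its GlnIND values lay below all parental ones. Its neighbours on chromosome 13 had a median of -0.46, and the difference from them was -0.57 (adjusted p = 0.0173). EEF2KMT was at 4.22, 8.29 and 10.1 CPM against 4.08, 4.74 and 4.49 CPM (-0.76, edgeR adjusted p = 0.039). Parental 1 lay among its GlnIND values, and without parental 1 the value was -1.06 (adjusted p = 1.56e-07). The call was lost without any other library (adjusted p 0.0821 to 0.124), with limma-voom (0.0861), with upper-quartile scaling (0.0668) and with library totals alone (0.094). Of the EEF2KMT span 22.9% overlaps ALG1, which held 2573 counts against 746 for EEF2KMT over the 6 libraries. EEF1AKMT2, EEF1AKMT3, EEF1AKMT4 and EEF1AKNMT were between -0.08 and 0.12 and were not called.

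Ratios of counts within a library do not depend on the scaling between libraries, and for 7 of 8 pairs of related genes they did not overlap between the groups. The pairs were picked after their values were seen and are given without a test, so this count is no result about the pairs. Of single tested genes 65.0% already had separate CPM ranges. For every 100 counts of EIF4E there were 1.33, 1.71 and 1.93 counts of EIF4E3 in parental libraries and 14.0, 13.6 and 13.8 in GlnIND libraries, a ratio of the means of 8.32. For every 100 counts of EIF2S2 there were 39.6, 49.7 and 48.5 counts of EIF2S3 against 96.9, 103 and 112. Counts of EIF5A2 per 100 of EIF5A were 6.94 ± 2.63 in parental and 12.4 ± 0.867 in GlnIND libraries (SD, n = 3 each), with a parental mean of 5.45 without parental 1. Counts of EEF2K per 100 of EEF2 were 2.23 ± 0.149 and 3.83 ± 0.198. EEF1A2 stayed rare beside EEF1A1, at 0.163 ± 0.0119 and 0.251 ± 0.0059 per 100. EIF4G2 and EIF4G1 kept their proportion, at 188 ± 9.87 and 186 ± 3.51 counts of EIF4G2 per 100 of EIF4G1, with overlapping values. These are ratios of counts and not of molecules, since gene lengths differ.

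**Figure D4:**
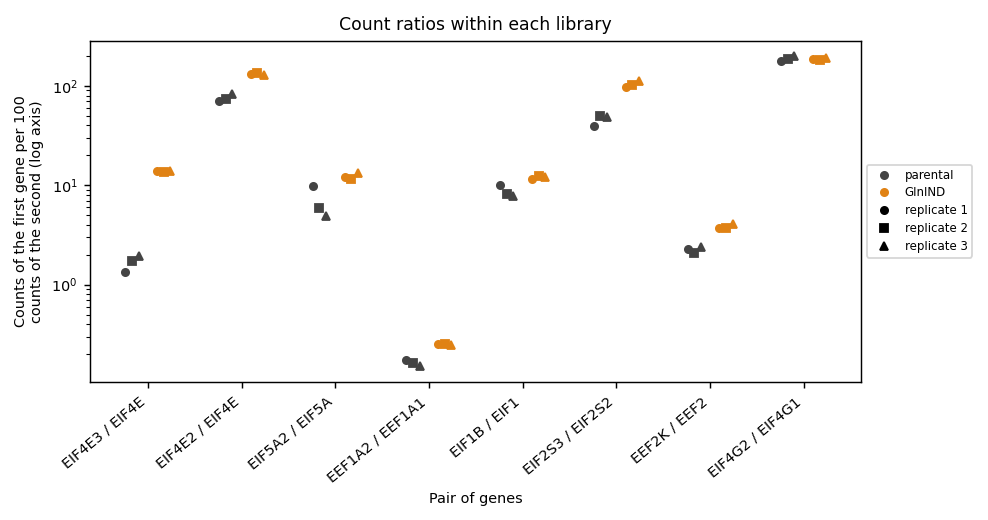
Counts of the first gene per 100 counts of the second (log axis) in each library for 8 pairs of related factor genes. The parental and GlnIND points are separate for every pair but EIF4G2 to EIF4G1, and lie farthest apart for EIF4E3 to EIF4E.

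The matched genes with a pyrimidine run at the start, some of whose sequences are printed above, did not share a direction. Of 12 tested, 4 were higher (EIF2D, EIF2S3, EIF3K and EIF4A2), 5 lower (EEF1A1, EEF1B2, EEF2, EIF3M and EIF4B) and 3 not called, with a median log2 fold change of -0.07. Of 33 tested genes matched without the run 6 were higher, 11 lower and 16 not called, with a median of -0.05. Over all tested genes 28.4% were higher and 27.9% lower, and among abundant genes 19.9% and 42.7%. The counts in this paragraph are to be read against these shares, and neither motif was tested. The EIF2D and EIF3K calls were lost under several alternatives, as given above. A run that opens beside the annotated first base does not count. Tested genes without a matched promoter are in neither group, here or for CACGTG. Among them EIF2S2, EIF3A, EIF3E, EIF3H, EEF1D, EEF1AKMT1 and EEF2KMT were lower and EIF3L was higher. EIF3G, EEF1A2, EEF1AKMT3 and EEF1AKNMT, also unmatched, were not called. Of the 12 genes with CACGTG 4 were higher, 5 lower and 3 not called, with a median of -0.08, and of 33 without it 6 were higher, 11 lower and 16 not called, with a median of -0.05.

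The other genes of the pathway, 51 tested, had 9 higher (17.6%) and 22 lower (43.1%), with a median of -0.20, shares near the 19.9% and 42.7% of abundant genes. The eIF4E-binding protein EIF4EBP1, the repressor that mTORC1 releases from eIF4E, was at 52.4, 64.6 and 54.2 CPM in parental and 61.6, 53.0 and 53.5 CPM in GlnIND libraries, which overlapped and were not called (-0.03, edgeR adjusted p = 0.843). Its relative EIF4EBP2 was lower (-0.24, edgeR adjusted p = 0.00867), a call lost with upper-quartile factors (-0.15, 0.0682), library totals alone (-0.09, 0.265) and the neighbours' median subtracted (-0.15, 0.0725). EIF4EBP3 was not tested. Among 10 regulators of the cap complex 2 were higher and 3 lower. MKNK2, a kinase of eIF4E, fell most, from 66.0, 76.4 and 80.5 CPM to 33.4, 29.8 and 29.8 CPM (-1.26, SE 0.096, edgeR adjusted p = 5.43e-06). Of 6 genes for eIF2 kinases and phosphatase subunits 2 were higher and 1 lower: PPP1R15B, the constitutive subunit that directs dephosphorylation of eIF2, at -0.52 (edgeR adjusted p = 0.000125). Of 5 poly(A)-binding protein genes and partners 2 were lower, among them PABPC1, which joins the mRNA tail to eIF4G, at -0.67 (edgeR adjusted p = 0.000946). PABPC1 was at 4256, 3228 and 2971 CPM in parental and 2255, 2138 and 2186 CPM in GlnIND libraries. Parental 1 was thus well above the other parental libraries, while all GlnIND values lay below all parental values.

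Of 6 termination and recycling genes 4 were lower and 0 higher, where 27.9% of all tested genes and 42.7% of abundant genes were lower. ABCE1, which splits ribosomes after termination, was at 537, 478 and 476 CPM in parental and 286, 281 and 303 CPM in GlnIND libraries (-0.78, SE 0.069, edgeR adjusted p = 1.5e-05). Of 9 mitochondrial translation factor genes 7 were lower and 0 higher, read against the same background, with MTIF3, a mitochondrial initiation factor, at -0.68 (edgeR adjusted p = 0.00289; less its neighbours' median -0.24, 0.204). Hypusine and diphthamide enzymes, which modify eIF5A and eEF2, had 3 of 8 higher and 2 lower, with DPH3 at 0.54 (edgeR adjusted p = 0.000181; less its neighbours' median 0.12, 0.215). Of 5 tested scanning and reinitiation factor genes 2 were higher and 2 lower. MCTS1, a reinitiation factor on chromosome X, was at -1.08 (edgeR adjusted p = 6.52e-06) in a window of neighbours with a median of -1.03.

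The surroundings of each factor gene gave a measure of regional differences along the chromosomes. For each gene the median log2 fold change of up to 40 tested genes nearest in gene order, 20 on each side and without factor genes, was taken as its window. Of 34 called genes 18 (52.9%) had the sign of their window, against 72.3% of 7775 called genes overall. Windows beyond 0.5 on the log2 scale in either direction were found for 2 of the 57 genes (3.51%), EIF4H and EIF1AD, against 10.3% of 13769 genes. Across the 57 genes Pearson's r between gene and window was 0.38 and Spearman's rho 0.38, and across 13769 tested genes they were 0.25 and 0.42; genes are not independent replicates, and nearby genes share windows. Less its window, EIF4E3 was at 2.07 (2.24 before), and of the lower genes EIF4G1 was at -0.88, EIF3J at -0.78, EIF2S2 at -0.68, EIF3B at -0.58 and EIF4E at -0.54.

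**Figure D5:**
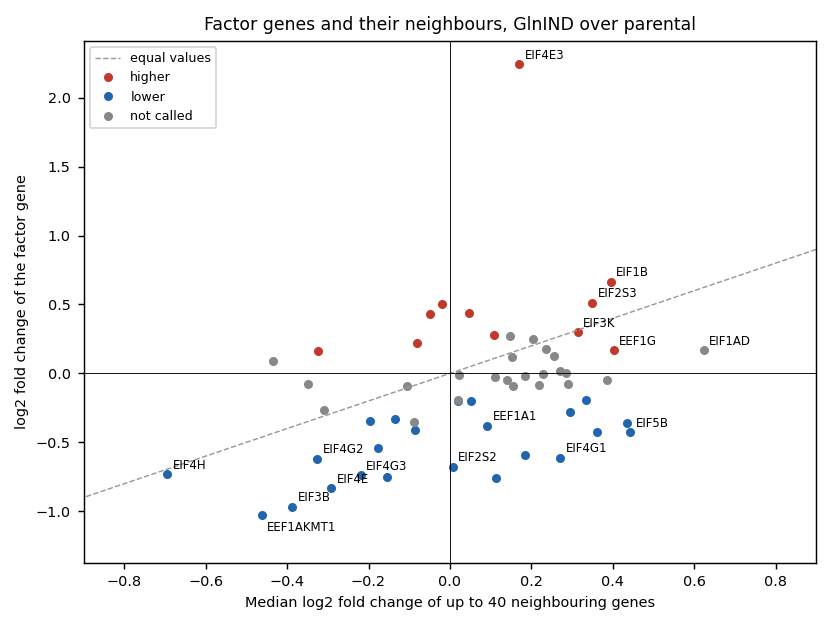
Log2 fold change of each of the 57 tested factor genes against the median log2 fold change of up to 40 neighbouring genes, with a dashed line where both are equal. EIF4H lies on the line with its neighbours at -0.70, and EIF4E3 lies farthest above it.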

How the data were processed

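Whole-number counts per gene, deposited by the authors in 1 table per library, were used as given. The submitters' processing notes name FastQC, STAR, featureCounts, DESeq and the build hg19; versions, strand setting and treatment of multiply mapped reads are not given in the sources used here. A deposited count matrix held the same values with the names of replicates 1 and 3 exchanged in both groups, and the per-library tables were followed.

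All 6 libraries were fitted by group alone with edgeR 4.0.16 in R 4.3.3 (TMM factors, filterByExpr with a minimum count of 10 and a total of 15, two-sided quasi-likelihood test, Benjamini-Hochberg adjustment over 13949 genes); the code was tested on simulated data. The SE was taken from the fold change and its F statistic. Alternatives were other scalings and filters, DESeq2 1.42.0, limma 3.58.1 with voom, a replicate block, leaving out each library, a threshold of 0.01, subtraction of the neighbours' median (RefSeq gene order, GRCh38.p14, shift treated as known) and, chosen after seeing the data, removal of a loess trend on the GC content of GENCODE transcripts. Intervals and floors cover counting error only.

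Members and lists were chosen with earlier results of these data known. Values in every library are given for genes chosen by role and for the 2 called genes with the largest change in each complex at a mean of at least 1 CPM; of each list of other pathway genes, the called gene with the largest change is named. EIF3E, EIF3H, EIF3J, EIF3M, EIF3L, EIF3K, EIF4E2, EIF6, EIF1 and others outside these rules are given to account for their complex. Replicate numbers come from the labels.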

Additional observations from a re-analysis of the deposited data

How the results depend on the processing

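Of the 34 calls among factor genes, 19 (7 higher and 12 lower) held under all 17 alternatives: EEF2K, EIF1B, EIF2S3, EIF3L, EIF4A2, EIF4E3 and EIF5A2 higher, and EEF1A1, EEF1AKMT1, EIF2S2, EIF3A, EIF3B, EIF3J, EIF3M, EIF4B, EIF4E, EIF4G1, EIF4G2 and EIF4G3 lower. The 11 higher and 23 lower genes became 18 and 14 with library totals alone, and 7 and 16 at an adjusted p under 0.01. With library totals alone EEF1B2, EEF1D, EEF2KMT, EIF1AX, EIF2B3, EIF3E, EIF3H, EIF5A and EIF5B were no longer called. Leaving out each library gave 7 to 14 higher and 16 to 29 lower genes, with 14 and 29 without parental replicate 1. With the neighbours' median subtracted, EEF1AKNMT turned to 0.27, EEF1G to -0.23, EIF1AD to -0.45, EIF2B2 to -0.28, EIF2B5 to -0.26 and EIF3K to -0.017. With the GC trend removed, EIF2S1 turned to 0.16, EIF1AX to 0.23, EIF2A to 0.20, EIF3E to 0.10 and EIF3H to 0.0013. The cause was not tested. A block on the replicate number gave 7 higher and 22 lower genes. Same-numbered libraries did not deviate together (correlations of -0.06, 0.03 and -0.04). The labels do not say whether same-numbered libraries were handled together, and these correlations cannot decide it. Depth limits the genes at or near 0 counts, of which EIF4A1, EIF3C and EIF3CL share sequence or span with other rows.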
